A study of Mus musculus with 8 samples.

Results

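The genes described here are those of the Hnrnp, Rbm and Rbfox families, whose products bind RNA. They were chosen by symbol (Hnrnp genes, numbered Rbm genes, Rbmx, Rbmx2 and Rbfox1 to Rbfox3), with at least 10 counts in 4 or more libraries of the exonic count table. Of 55471 genes in that table, 63 had such a symbol and 59 met the count minimum. Rbm46, Rbm44, Rbm46os and Rbm31y did not, with at most 3, 8, 1 and 0 counts in any library. One of the 59, Rbm3os, is antisense to Rbm3 and encodes no protein. The rule used names and depth, not a difference between groups, but the members were chosen with earlier results of these data known. Nuclear polyadenylated RNA was sequenced from forebrain excitatory neurons of 4 Pilo and 4 Mock samples. All came from male C57BL/6J mice, 6 to 8 weeks old, with the genotype CaMKIIalpha-Cre:SUN1-sfGFP, in which Cre under a Camk2a promoter switches on a GFP-tagged nuclear envelope protein, and tagged nuclei were pulled from forebrain homogenate with antibody-coated beads (INTACT). Both groups received scopolamine methyl nitrate at 1 mg/kg, a muscarinic blocker with poor entry into the brain. The Pilo mice were given pilocarpine, a muscarinic agonist, at 340 mg/kg 30 min later, and were kept if their seizures scored 3 to 5 on the Racine scale within 100 min, while the Mock mice were given saline and had no such selection. Drug effects and seizure effects therefore cannot be told apart. The time after injection was given as 100 min for the samples of both groups. Whether each sample is its own mouse is not in the labels, and the p-values cover the spread of these samples, part of which may be technical.

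Heterogeneous nuclear ribonucleoproteins (hnRNPs) coat nascent transcripts and take part in splice site choice, RNA export and decay. Most RBM proteins are named for an RNA recognition motif and sit in the spliceosome, in adaptors of RNA methylation or decay, or in regulators of alternative exons, and the Rbfox proteins regulate alternative exons in neurons. Many genes of these families are known to limit their own output through exons or retained introns that keep an mRNA in the nucleus or lead to its decay, so exonic and intronic reads of one gene need not move together in nuclear RNA. A rise in polyadenylated intronic reads may come from pre-mRNA or from retained introns, and these counts do not tell the 2 apart.

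The exonic table held 29356788 to 36161448 counts per library, and the 59 genes took 1.15% to 1.23% of them in Pilo and 1.24% to 1.31% in Mock. A second table gave exonic and intronic counts apart, with 27135364 to 33715773 exonic and 11928054 to 16703475 intronic counts per library. The unit of level is CPM, a count scaled to one library size for all samples with TMM factors. By their correlation over genes, replicate 2 of one table matched replicate 3 of the other in both groups, and each result carries the numbers of its own table. The intronic share of all exonic and intronic counts was 29.9, 29.2, 30.6 and 30.3% in the Pilo libraries, against 32.95, 33.4, 31.9 and 33.7% in the Mock libraries. It was lower in every Pilo library, at 29.99 ± 0.63% in Pilo and 32.97 ± 0.80% in Mock (SD, n = 4 each), a difference of -2.98 percentage points (exact permutation test, two-sided, p = 0.0286, the smallest p that 4 against 4 allows). With the libraries paired by number the exact sign-flip p was 0.125, the smallest that 4 pairs allow. Markers of excitatory neurons, the highest of the lists, summed to 2540 to 3100 CPM in Pilo and 2270 to 2910 CPM in Mock, with 3 of 6 higher past the test. Of 7 inhibitory markers 2 were higher (sum 160 to 254 CPM in Pilo and 125 to 162 CPM in Mock), and of 6 oligodendrocyte markers 2 were higher (344 to 606 CPM in Pilo and 267 to 360 CPM in Mock). None of 6 astrocyte markers (181 to 412 CPM in Pilo and 174 to 318 CPM in Mock), 6 microglial markers (14.2 to 22.5 CPM in Pilo and 12.3 to 18.8 CPM in Mock) or 4 endothelial markers (5.74 to 43.5 CPM in Pilo and 3.65 to 16.5 CPM in Mock) passed. No marker was at 0 in every library. These calls were exonic. In introns 4 of 6 inhibitory and 2 of 6 excitatory markers were higher. So were 1 of 6 astrocyte, 1 of 5 oligodendrocyte and 1 of 4 microglial markers. Over all genes tested, 15.6% were higher in exons and 19.6% in introns. In exons Pilo replicate 3 was the highest Pilo library for each inhibitory and endothelial marker. Flt1 stood at 16.3 CPM there, against 2.35 to 2.78 CPM in the other Pilo libraries. The part of other cell types in the results below was not tested, and in bulk nuclei fewer cells of a type and less RNA per cell cannot be told apart.

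Of the 59 genes, 23 passed the exonic test, and they went both ways. Hnrnpll and Rbm12 were 2.21-fold and 2.05-fold higher in Pilo, and Rbm15, Rbm3, Hnrnpdl and Rbmx stood at 0.58, 0.603, 0.625 and 0.632 of their Mock level. In all, 9 genes were higher and 14 lower in Pilo, and 36 passed in neither direction (edgeR quasi-likelihood test, Benjamini-Hochberg adjusted over all genes, threshold 0.05). The share called higher, 15.3%, was near that of all 19176 genes tested, of which 15.6% were called higher. The share called lower was 23.7%, against 16.2% of all genes, and 39% were called in either direction against 31.8%. The median log2 fold change of the 59 genes was -0.065, against 0.005 over all genes. Genes named Rbm leaned lower, with 4 higher and 11 lower of 36 and a median of -0.135, while the Hnrnp genes had 4 higher and 3 lower of 20 and a median of 0.011. These counts describe the families and were not tested against other genes. The 36 genes that passed in neither direction ranged from -0.51 to 0.59. With the replicate number as a block, 17 genes were higher and 20 lower (28.8% and 33.9%), but more of all genes passed too, 23.8% higher and 23.2% lower. Without Pilo replicate 3, 14 genes were higher (23.7%, against 15.9% of all genes). DESeq2 called 14 higher and 15 lower (23.7% and 25.4%), against 17.2% and 16.3% of all genes.

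**Figure D1:**
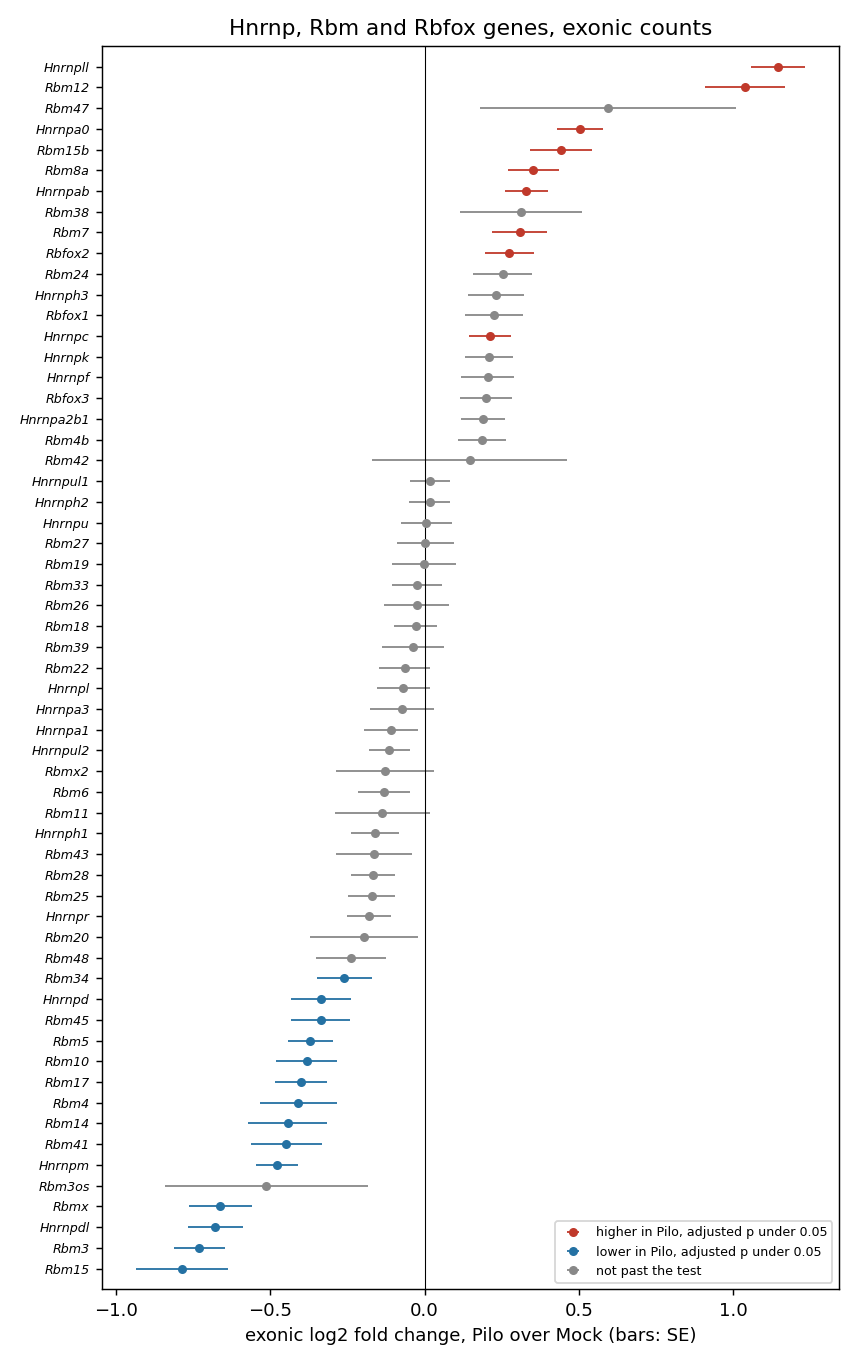
Exonic log2 fold change of Pilo over Mock (x axis) for each of the 59 genes (y axis), ordered by fold change, with bars of 1 standard error. Red points passed the test as higher (9), blue points as lower (14) and grey points did not pass (36). Hnrnpll and Rbm12 lie farthest to the right at 1.15 and 1.04, and Rbm15 farthest to the left at -0.79.

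Hnrnpll (ENSMUSG00000024095, chromosome 17, 80029487 to 80062334 on GRCm38), which encodes the hnRNP L-like regulator of alternative exons known from T cells, had the largest rise. Its exonic level was 312, 359.5, 295 and 326 CPM in the Pilo libraries, against 134, 156, 158 and 136 CPM in the Mock libraries. All Pilo values lay far above all Mock values, a log2 fold change of 1.15 (adjusted p = 2.49e-06, SE 0.09). Rbm12 (ENSMUSG00000089824, chromosome 2, 156091958 to 156111978) stood at 13.1, 14.5, 18.2 and 15.5 CPM in the Pilo libraries, against 8.09, 6.21, 8.15 and 7.34 CPM in the Mock libraries. The groups did not overlap, and the log2 fold change was 1.04 (adjusted p = 6.82e-05, SE 0.13). Exons of Rbm12 overlap those of Cpne1 and Gm28036 on the same strand, so its counts are uncertain.

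Hnrnpa0 (ENSMUSG00000007836, chromosome 13, 58125879 to 58128556), which binds AU-rich elements of mRNAs, stood at 67.9, 63.02, 69.8 and 62.8 CPM in the Pilo libraries, against 46.01, 45.3, 51.2 and 43.3 CPM in the Mock libraries, again with no overlap, and rose by 0.50 (adjusted p = 0.000268, SE 0.07). The other A/B gene that rose was Hnrnpab, at 45.3 ± 1.58 CPM in Pilo and 36.1 ± 1.54 CPM in Mock (SD, n = 4 each), by 0.33 (adjusted p = 0.00296, SE 0.07), although its exons overlap Phykpl on the other strand. Rbm15b, an adaptor of the complex that writes N6-methyladenosine on RNA, was at 36.4 ± 4.88 CPM in Pilo and 26.8 ± 1.86 CPM in Mock, a rise of 0.44 (adjusted p = 0.00433, SE 0.10), although its exons overlap Manf on the same strand and Dcaf1 on the other. Rbm8a encodes Y14, a core protein of the exon junction complex, and rose by 0.35 (adjusted p = 0.00541, SE 0.08), with 31.7 ± 2.597 CPM in Pilo and 24.8 ± 1.101 CPM in Mock. Rbm7, the RNA-binding subunit of the nuclear exosome targeting complex, rose by 0.31 (adjusted p = 0.0182, SE 0.09). In these 5 genes every Pilo library was above every Mock library. Hnrnpc, which binds uridine tracts of nascent RNA, rose least, by 0.21 (adjusted p = 0.0296, SE 0.07), and its call was lost without Pilo replicate 2 or Mock replicate 1 or 4 (adjusted p = 0.0688 to 0.0741) and with no filter on low counts (adjusted p = 0.0842).

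The 3 Rbfox genes had exonic log2 fold changes of 0.20 to 0.28. Rbfox2 rose by 0.28 (adjusted p = 0.0181, SE 0.08), at 784, 785, 673 and 691 CPM in the Pilo libraries, against 593, 629.6, 607 and 595 CPM in the Mock libraries. Its groups did not overlap. Rbfox1, at 178 ± 24.1 CPM in Pilo and 152 ± 6.03 CPM in Mock, had a log2 fold change of 0.23 (adjusted p = 0.0835, SE 0.09), and Rbfox3, which encodes the neuronal nuclear antigen NeuN, was at 310.2 ± 27.4 CPM in Pilo and 270.3 ± 17.9 CPM in Mock with 0.20 (adjusted p = 0.0895, SE 0.08). The groups overlapped for Rbfox1 and Rbfox3. With the replicate number as a block Rbfox1 and Rbfox3 passed too (adjusted p = 0.011 and 0.00612), as they did without Pilo replicate 3 (adjusted p = 0.0157 and 0.0379). The difference between Rbfox2 and its relatives was not tested.

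Among the falls, Rbm15 (ENSMUSG00000048109, chromosome 3, 107325421 to 107333673), the other adaptor of the methylation complex, stood at 10.1, 7.57, 8.89 and 8.12 CPM in the Pilo libraries, against 16.6, 11.5, 18.4 and 13.3 CPM in the Mock libraries. The groups did not overlap, and Rbm15 fell by 0.79 (adjusted p = 0.0014, SE 0.15), so that the paralogs Rbm15 and Rbm15b changed in opposite directions. Rbm3 (ENSMUSG00000031167, chromosome X, 8138975 to 8145880), a cold-inducible protein linked to translation and synapse maintenance, stood at 104, 104, 85.7 and 90.3 CPM in the Pilo libraries, against 168, 164, 153 and 152 CPM in the Mock libraries. Every Pilo value was well below every Mock value, a fall of 0.73 (adjusted p = 3.74e-05, SE 0.08). Its antisense gene Rbm3os, whose exons overlap Rbm3, had -0.51 (adjusted p = 0.261, SE 0.33). The related cold-inducible gene Cirbp did not pass, at -0.27 (adjusted p = 0.0548, SE 0.10).

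Hnrnpdl (ENSMUSG00000029328, chromosome 5, 100033577 to 100039664), a relative of AUF1, stood at 517, 441, 406 and 424 CPM in the Pilo libraries, against 776, 712, 681 and 693 CPM in the Mock libraries, with no overlap, and fell by 0.68 (adjusted p = 0.000112, SE 0.09). Hnrnpd, which encodes AUF1 itself, a factor of AU-rich mRNA decay, fell by 0.34 (adjusted p = 0.019, SE 0.10). The A/B group of 7 genes thus held 2 rises, Hnrnpa0 and Hnrnpab, and 2 falls, while Hnrnpa1, Hnrnpa2b1 and Hnrnpa3 had log2 fold changes of -0.11, 0.19 and -0.07. For Hnrnpa2b1, all Pilo libraries were above all Mock libraries and the adjusted p was 0.0573, or 0.00393 with the block. Rbmx (ENSMUSG00000031134, chromosome X, 57383530 to 57393036), the X-linked gene of hnRNP G, stood at 93.1, 96.5, 124 and 93.6 CPM in the Pilo libraries, against 172, 155, 173 and 145 CPM in the Mock libraries. Pilo replicate 3 was the highest of its group and still below every Mock library, and Rbmx fell by 0.66 (adjusted p = 0.000322, SE 0.10). Leaving out Pilo replicate 3 gave a log2 fold change of -0.76 (adjusted p = 6.35e-05). The call of Hnrnpd was lost without Pilo replicate 4 or Mock replicate 2 or 3 (adjusted p = 0.055 to 0.0791).

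**Figure D2:**
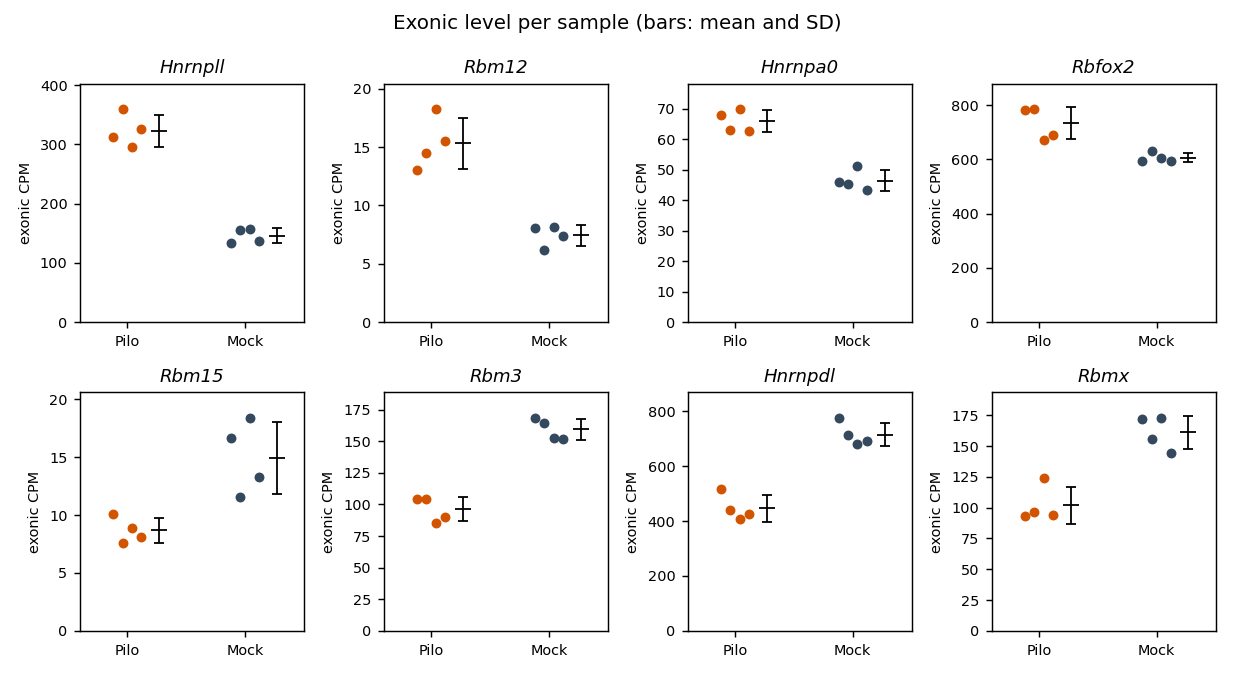
Exonic level in CPM (y axes, from 0) of each library for named genes, with the Pilo libraries left of the Mock libraries in each panel; points are single libraries and the bar is the mean ± SD of 4. Hnrnpll, Rbm12, Hnrnpa0 and Rbfox2 have all Pilo points above the Mock points, and Rbm15, Rbm3, Hnrnpdl and Rbmx have them all below.

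Among genes of the splicing machinery and its regulators, Hnrnpm, which binds GU-rich sequence, fell by 0.48 (adjusted p = 0.000204, SE 0.07), at 204 ± 9.59 CPM in Pilo and 285 ± 4.73 CPM in Mock, and Rbm41 fell by 0.45 (adjusted p = 0.00898, SE 0.11). In both the groups did not overlap, while exons of Hnrnpm overlap March2 on the same strand. Of the related exon regulators Rbm5, Rbm6 and Rbm10, Rbm5 fell by 0.37 (adjusted p = 0.00168, SE 0.07) and Rbm10 by 0.38 (adjusted p = 0.0095, SE 0.10), while Rbm6 had -0.13 (adjusted p = 0.268, SE 0.09) and passed as lower with the block (adjusted p = 0.0473). Exons of Rbm10 overlap Ndufb11 on the other strand, so its counts are uncertain. Rbm17, which encodes the splicing factor SPF45, fell by 0.40 (adjusted p = 0.00295, SE 0.09). Of the 12 Rbm genes of the spliceosome and exon junction, 1 rose and 4 fell. Of all genes tested, 15.6% were higher and 16.2% lower. This count and those of the A/B and F/H groups come from few genes and were not tested against other genes. Rbm39, the Rbm gene with the highest level per kilobase of exon, had -0.04 (adjusted p = 0.82, SE 0.10).

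Rbm14, a coactivator found in paraspeckles, fell by 0.44 (adjusted p = 0.0167, SE 0.13) and its neighbour Rbm4, a regulator of alternative exons, by 0.41 (adjusted p = 0.0228, SE 0.12). Both share exons with the readthrough gene Gm21992 on the same strand, so the 2 calls are not independent and the counts are uncertain. The call of Rbm14 was lost without Pilo replicate 2 or Mock replicate 1 or 3 (adjusted p = 0.0509 to 0.0769), and that of Rbm4 without Pilo replicate 2, 3 or 4 or Mock replicate 1 or 4 (adjusted p = 0.0543 to 0.0831). Rbm4b, a close paralog of Rbm4, had 0.19 (adjusted p = 0.0841, SE 0.08) and passed as higher with the block (adjusted p = 0.0359). Rbm45 fell by 0.34 (adjusted p = 0.0162, SE 0.10) and Rbm34 by 0.26 (adjusted p = 0.0383, SE 0.09). Their calls were lost for Rbm45 without Pilo replicate 2 or Mock replicate 1 or 3 (adjusted p = 0.0504 to 0.0788), and for Rbm34 without Pilo replicate 1, 3 or 4 or Mock replicate 1, 2, 3 or 4 (adjusted p = 0.06 to 0.109) or with no filter on low counts (adjusted p = 0.0812).

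The F/H group, whose proteins bind guanine tracts, had no exonic call among its 4 genes, with log2 fold changes between -0.16 for Hnrnph1 and 0.23 for Hnrnph3. With the block, Hnrnpf, Hnrnph1 and Hnrnph3 passed (adjusted p = 0.0322, 0.0165 and 0.00187), Hnrnph1 as lower and the others as higher. Hnrnpu, a scaffold-attachment protein, had 0.01 (adjusted p = 0.965, SE 0.08), and Hnrnpk, a poly(C)-binding hnRNP, 0.21 (adjusted p = 0.0549, SE 0.08), with the Pilo values of Hnrnpk all above its Mock values. The block called Hnrnpk and Rbm24 higher (adjusted p = 0.00206 and 0.00886) and Rbm28 lower (adjusted p = 0.0113). Without Pilo replicate 3, Hnrnpk, Hnrnph3 and Rbm24 also passed as higher, at adjusted p = 0.0389, 0.00856 and 0.0461. Hnrnpk passed without Mock replicate 1 as well (adjusted p = 0.0364), and Rbm24 without Mock replicate 3 (adjusted p = 0.0176).

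Levels of different genes were compared per kilobase of annotated exon. On this scale, CPM per kilobase, Hnrnpa1 was highest, at 168 ± 15.6 in Pilo and 181 ± 12.8 in Mock (SD, n = 4 each), followed in Pilo by Hnrnpa2b1 at 149 ± 3.403 in Pilo and 131 ± 3.51 in Mock. Hnrnpu and Hnrnph1 came next, at 142 ± 10.04 in Pilo and 142 ± 7.36 in Mock for Hnrnpu and 141 ± 8.49 in Pilo and 158 ± 7.53 in Mock for Hnrnph1. Hnrnpa2b1, Hnrnpu and Hnrnph1 lay between 141 and 149 in Pilo and did not differ there beyond their spread. Hnrnpdl stood at 92.8 ± 10.1 in Pilo and 148 ± 8.81 in Mock, and Rbfox2 at 90.1 ± 7.32 in Pilo and 74.5 ± 2.07 in Mock. The lowest were Rbm42 at 0.206 ± 0.0324 in Pilo and 0.186 ± 0.0524 in Mock and Rbm47 at 0.0708 ± 0.0337 in Pilo and 0.0466 ± 0.01999 in Mock. Rbm47 had 11 to 27 counts per Pilo library and 5 to 15 per Mock library, so its log2 fold change of 0.59 (adjusted p = 0.304, SE 0.42) rests on few reads. Rbm42 had 13 to 17 counts per Pilo library and 9 to 17 per Mock library. Its exons overlap Gm21982 on the same strand. Those of Rbm47 overlap Gm43323 on the same strand and Gm26725 on the other. The counts and low levels of both genes are therefore uncertain.

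Promoters of members that anchor the results are shown to give the sequence just upstream of their start. They are the 250 bases before the transcription start in RefSeq on GRCm38.p6, written 5′ to 3′ along the gene's strand, for the gene with the largest rise and that with the largest fall in exons among genes in the promoter table, and for Rbmx and Hnrnpr, which had the most unequal exonic and intronic changes. Capitals mark TGACG, the core of the cAMP response element, or its reverse complement CGTCA. The positions are chr2:156111966-156112215, minus strand for Rbm12, chr3:107333290-107333539, minus strand for Rbm15, chrX:57393037-57393286, minus strand for Rbmx and chr4:136310692-136310941, plus strand for the first listed start of Hnrnpr. In GENCODE M21 the gene span of Rbm15 reaches 107333673, so its window lies inside that span. The span of Rbm12 reaches 156111978, which is within its window. For these genes the annotations place the start differently, and the windows are upstream of the RefSeq start only.
Rbm12: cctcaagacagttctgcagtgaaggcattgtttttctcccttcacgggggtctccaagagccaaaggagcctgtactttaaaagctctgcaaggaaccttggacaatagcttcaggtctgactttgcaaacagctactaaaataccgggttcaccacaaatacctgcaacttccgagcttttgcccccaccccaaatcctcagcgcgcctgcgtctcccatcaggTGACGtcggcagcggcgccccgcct
Rbm15: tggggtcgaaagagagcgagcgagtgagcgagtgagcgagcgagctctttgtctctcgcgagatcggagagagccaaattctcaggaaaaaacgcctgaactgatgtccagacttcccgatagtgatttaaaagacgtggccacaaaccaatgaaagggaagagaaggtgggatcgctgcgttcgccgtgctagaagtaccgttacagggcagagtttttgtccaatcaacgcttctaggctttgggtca
Rbmx: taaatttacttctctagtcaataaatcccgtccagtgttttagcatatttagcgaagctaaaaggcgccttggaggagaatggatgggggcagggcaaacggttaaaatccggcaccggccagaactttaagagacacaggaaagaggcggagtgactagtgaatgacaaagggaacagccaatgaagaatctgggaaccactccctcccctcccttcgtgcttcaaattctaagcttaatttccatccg
Hnrnpr: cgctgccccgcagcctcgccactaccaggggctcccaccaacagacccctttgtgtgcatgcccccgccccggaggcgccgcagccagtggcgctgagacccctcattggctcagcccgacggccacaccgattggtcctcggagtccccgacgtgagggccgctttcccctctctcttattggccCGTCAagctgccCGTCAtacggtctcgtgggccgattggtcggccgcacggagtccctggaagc
The window of Rbm12 holds 1 such stretch and the printed window of Hnrnpr 2, and those of Rbm15 and Rbmx hold none. The window of a further listed start of Hnrnpr, not printed, also holds none. On either strand, TGACG occurred in 22 of the 51 members with a promoter in the table (43.1%), against 19.79% of 27025 genes. It was in 4 of 6 members called higher, 4 of 13 called lower and 14 of 32 called in neither direction. The whole element TGACGTCA was in 0 of 51 (1.77% of genes), the AP-1 motif TGACTCA in 1, Hnrnpa1 (5.16% of genes), and the Egr motif GCGNGGGCG in 3, Hnrnpf, Rbm28 and Rbm4b (5.33% of genes). AP-1 and Egr factors are products of genes induced by neuronal activity. A gene was counted if the window of any of its listed starts held the motif, and the shares of genes cover expressed and silent genes alike. These are matches of letters, and neither the number of starts per gene nor base composition was accounted for.

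The second table allowed exonic and intronic changes of the same gene to be set side by side. Of the 59 genes, 56 had a row in it, and 51 had enough intronic reads to be tested. Rbm3, Rbm12, Rbm14 and Rbm42 were listed with 0 intronic counts in every library, Rbm47 had too few, and Hnrnpa0, Rbm15b and Rbm3os had no row. Introns of 9 genes were higher and those of 12 lower in Pilo. As shares of the 51 genes these are 17.6% and 23.5%, against 19.6% and 21.9% of 13318 genes tested, and 41.2% in either direction against 41.4%, so the families stood near the background. The median intronic log2 fold change was -0.045 for the 51 genes and -0.004 for all genes tested. The range was wide, from -2.23 for Rbmx to 1.35 for Hnrnpll. Over the 51 genes the exonic and intronic changes had a Pearson correlation of 0.61 and a Spearman correlation of 0.51, across genes that share the same libraries.

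Exonic calls of the first table and intronic calls pointed the same way in 12 genes. Hnrnpc, Hnrnpll, Rbm7 and Rbm8a were higher in both regions. Hnrnpd, Hnrnpdl, Rbm5, Rbm10, Rbm15, Rbm17, Rbm34 and Rbmx were lower in both. In 9 genes only the intronic test passed, with Hnrnpa2b1, Hnrnpr, Rbm4b, Rbm22 and Rbm25 higher and Rbm19, Rbm27, Rbm38 and Rbm48 lower. In 4 further genes with tested introns only the exonic test passed lower, Hnrnpm, Rbm4, Rbm41 and Rbm45, and in 2 it passed higher, Hnrnpab and Rbfox2. With exonic calls of the first table, no gene had calls of opposite direction. In the exonic columns of the second table Hnrnpr and Rbm25 passed as lower (adjusted p = 0.0347 and 0.0427), while their introns passed as higher. Of the 12 genes called the same way in both regions, the intronic call was lost for Hnrnpc without Pilo replicate 2, 3 or 4 or Mock replicate 1, 2, 3 or 4 (adjusted p = 0.0565 to 0.168) or with no filter on low counts (adjusted p = 0.0763), for Hnrnpdl without Pilo replicate 2 or 4 or Mock replicate 1 or 2 (adjusted p = 0.0688 to 0.0925), for Rbm15 without Pilo replicate 3 or 4 or Mock replicate 1 or 2 (adjusted p = 0.0502 to 0.115) and for Rbm17 without Pilo replicate 4 (adjusted p = 0.0523). Rbfox1, whose reads are largely intronic, had an intronic log2 fold change of 0.28 (adjusted p = 0.0578, SE 0.11), and passed with the block (adjusted p = 0.000248) and without Pilo replicate 1 or Mock replicate 4 (adjusted p = 0.00494 to 0.043). With the block, 12 genes were higher and 17 lower in introns (23.5% and 33.3%), against 27.7% and 29.2% of all genes. It added Hnrnpa1 and Hnrnpk as higher (adjusted p = 0.0372 and 0.00902), and Hnrnph1, Hnrnpul1, Rbm20 and Rbm41 as lower (adjusted p = 0.0228, 0.0273, 0.0426 and 0.0114). Introns of Hnrnph1 and Rbm11 passed without Pilo replicate 1 (adjusted p = 0.0367 and 0.0356), and those of Rbm41 without Pilo replicate 2 (adjusted p = 0.0258).

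The difference between regions was tested as an interaction of region with treatment, on a scale where each region had its own library scaling. A positive value means that exons changed upward relative to introns. In 8 genes the exonic change lay above the intronic one and in 13 below, 15.7% and 25.5% of 51, against 13.5% and 12.8% of 13047 genes tested, and in 41.2% against 26.2% in either direction. The median difference was -0.041 for the 51 genes and 0.009 for all genes. The Hnrnp genes had 2 above and 7 below of 19, and the Rbm genes 6 above and 6 below of 29. Since the intronic share of the whole library was lower in Pilo, one scaling per library for both regions shifted all genes upward, to a median of 0.255, and called 5822 genes above (44.6%) and 406 below (3.11%). On that scale 24 of the 51 genes were above, with all 8 retained, and 5 below, namely Hnrnpr, Rbm8a, Rbm22, Rbm25 and Hnrnpm. Without Pilo replicate 2 the number above was 5 (9.8%, against 9.5% of all genes). With the block 12 genes were above and 19 below (23.5% and 37.3%), against 20.5% and 18.7% of all genes. It added Hnrnpab, Hnrnpul1, Rbfox2 and Rbm24 above (adjusted p = 0.0257, 0.0258, 0.0083 and 0.0236). Below, it added Hnrnpu, Rbm7, Rbm33 and Rbm39 (adjusted p = 0.018, 0.00714, 0.0414 and 0.0167) and Rbm4b and Rbm41 (adjusted p = 0.034 and 0.0329). In addition, some genes passed when a library was left out, Rbm24 without Mock replicate 4 (adjusted p = 0.0272), Rbm4 without Mock replicate 3 (adjusted p = 0.0411), Rbm41 without Pilo replicate 3 or Mock replicate 3 (adjusted p = 0.0296 to 0.0442) and Rbm4b without Pilo replicate 3 (adjusted p = 0.048).

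**Figure D3:**
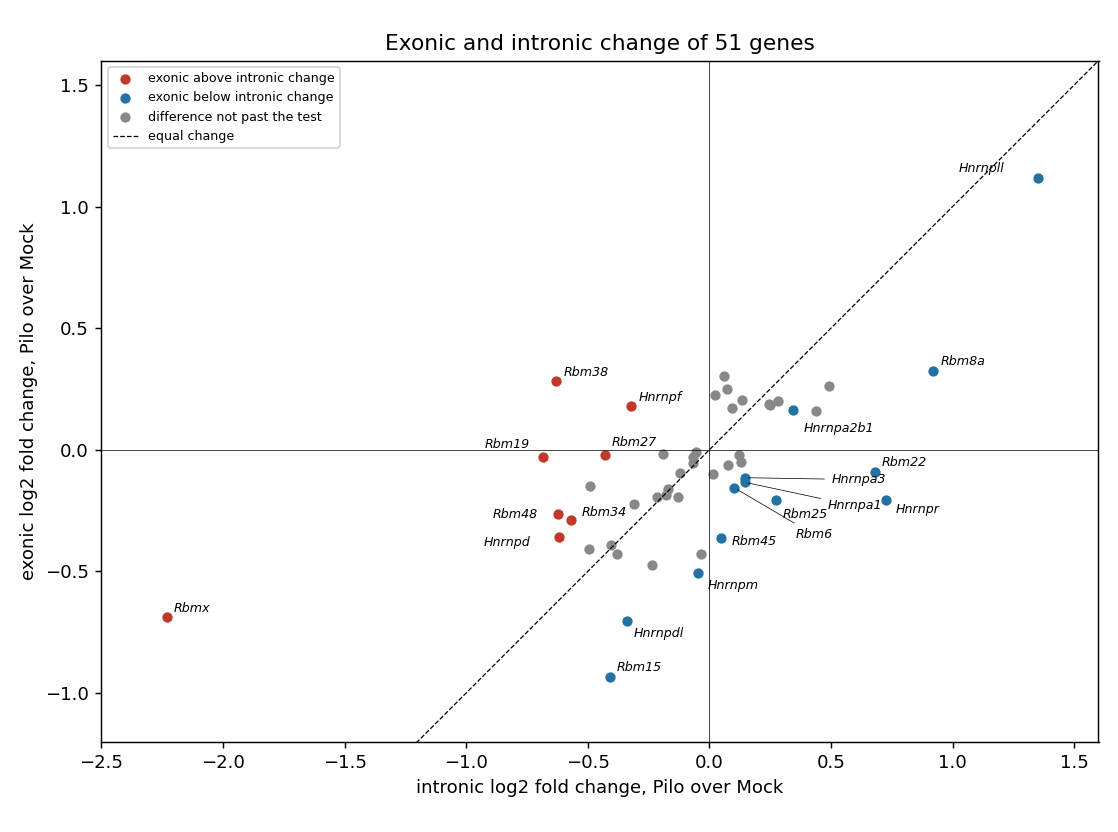
Exonic log2 fold change (y axis) against intronic log2 fold change (x axis), Pilo over Mock, both from the second table, for the 51 genes with tested introns. Points on the dashed line changed equally; red genes (8) have exons above introns and blue genes (13) exons below introns past the test, with Rbmx farthest from the line at an intronic change of -2.23.

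Rbmx had the largest difference. Its intronic level was 13.03, 15.1, 9.81 and 11.01 CPM in the Pilo libraries, against 58.1, 64.4, 60.1 and 47.2 CPM in the Mock libraries. All Pilo values were far below the lowest Mock value, a log2 fold change of -2.23 (adjusted p = 1.24e-07, SE 0.15), or 0.213-fold. The raw intronic counts were 124 to 182 in Pilo and 679 to 1103 in Mock. The intronic share of its reads was 5.29, 4.33, 4.03 and 4.47% in the Pilo libraries, against 13.6, 14.6, 14.6 and 13.6% in the Mock libraries. Exons fell less than introns, by a difference of 1.54 (adjusted p = 1.67e-06, SE 0.10), so that in Pilo a smaller part of a lower Rbmx signal was intronic.

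Hnrnpr, a relative of the axonal mRNA-binding protein SYNCRIP, lay at the other end. Its intronic level was 169.9, 187, 179 and 174 CPM in the Pilo libraries, against 113, 98.8, 103 and 114 CPM in the Mock libraries. The groups did not overlap, and introns rose by 0.73 (adjusted p = 2.33e-05, SE 0.09). Its exonic level was 142, 154, 146 and 146 CPM in the Pilo libraries, against 154, 172, 177 and 166 CPM in the Mock libraries. These exonic ranges overlapped narrowly, with a log2 fold change of -0.18 (adjusted p = 0.0701, SE 0.07), which passed as lower with the block (adjusted p = 0.00782) and in the exonic columns of the second table, at -0.21 (adjusted p = 0.0347, SE 0.07). The intronic share of Hnrnpr was 32.2, 32.3, 32.4 and 32.2% in the Pilo libraries, against 25.5, 20.3, 20.9 and 25.04% in the Mock libraries. Thus every Pilo library had a higher intronic share, against the direction of the whole library, and the difference between regions was -0.93 (adjusted p = 1.04e-05, SE 0.08). Exons of Hnrnpr overlap Gm27022 on the other strand.

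**Figure D4:**
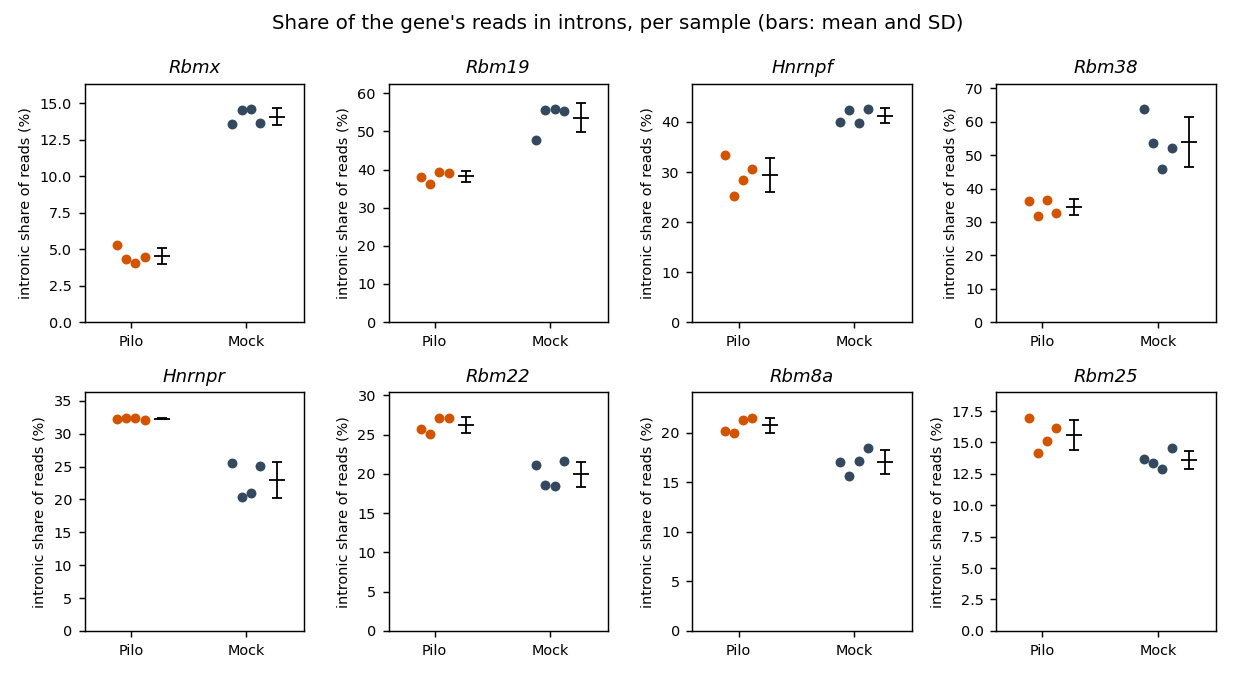
Intronic share of exonic and intronic reads in percent (y axes, from 0) in each library for named genes, Pilo left of Mock in each panel, with the mean ± SD of 4. Rbmx averaged 4.53% in Pilo and 14.1% in Mock, and Hnrnpr 32.3% in Pilo and 22.9% in Mock.

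Of the other genes with exons below introns, Rbm6, Rbm8a, Rbm22 and Rbm25 encode proteins of the spliceosome or exon junction. Rbm22, which sits at the catalytic core, had introns at 60.6, 62.8, 72.8 and 62.7 CPM in the Pilo libraries, against 39.8, 41.7, 39.2 and 40.96 CPM in the Mock libraries. The groups were far apart, with an intronic rise of 0.68 (adjusted p = 0.000103, SE 0.10), an exonic log2 fold change of -0.07 (adjusted p = 0.593, SE 0.08) and a difference of -0.77 (adjusted p = 1.79e-05, SE 0.07). Rbm8a rose more in introns, by 0.92 (adjusted p = 8.17e-05, SE 0.13), than in exons, a difference of -0.60 (adjusted p = 0.000418, SE 0.09). Rbm25, which acts with the U1 particle, had an intronic share of 15.6 ± 1.22% in Pilo and 13.6 ± 0.716% in Mock, an intronic rise of 0.27 (adjusted p = 0.0395, SE 0.10) and a difference of -0.47 (adjusted p = 0.000259, SE 0.07). Its intronic call was lost without Pilo replicate 1 or 4 or Mock replicate 1, 2, 3 or 4 (adjusted p = 0.0616 to 0.118) and with no filter on low counts (adjusted p = 0.0562), while its difference passed in each of these fits. In exons Rbm25 had -0.17 (adjusted p = 0.107, SE 0.08), with every Pilo library below every Mock library, and passed with the block (adjusted p = 0.00906). It also passed as lower in the exonic columns of the second table, at -0.21 (adjusted p = 0.0427, SE 0.07).

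Rbm15 and Hnrnpm also had exons below introns. Rbm15 introns fell by 0.41 (adjusted p = 0.0306, SE 0.14) and its difference was -0.51 (adjusted p = 0.0145, SE 0.14). This difference uses the exonic columns of the second table, where Rbm15 had -0.93 (adjusted p = 0.00145, SE 0.17). Its exonic level there was 5.31 ± 0.77 CPM in Pilo and 10.1 ± 2.33 CPM in Mock, below its level in the first table. Hnrnpm introns had -0.04 (adjusted p = 0.702, SE 0.09), and its difference was -0.46 (adjusted p = 9.3e-05, SE 0.06). Hnrnpm kept its call under one scaling per library, and Rbm15 lost it (adjusted p = 0.128). Hnrnpdl fell in both regions and more in exons, by a difference of -0.36 (adjusted p = 0.00398, SE 0.08). Rbm45 fell in exons, its introns had 0.05 (adjusted p = 0.705, SE 0.09), and its difference was -0.41 (adjusted p = 0.000962, SE 0.07). Under one scaling per library Hnrnpdl and Rbm45 lost the call of their difference too (adjusted p = 0.268 and 0.0642).

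Hnrnpa1, Hnrnpa2b1, Hnrnpa3, Hnrnpll and Rbm6 had smaller differences, between -0.28 and -0.18. For Hnrnpll both regions rose strongly, with introns at 381, 431, 448 and 396 CPM in the Pilo libraries, against 142, 184, 175 and 149 CPM in the Mock libraries. Its intronic share was 33.6 ± 1.23% in Pilo and 33.8 ± 0.937% in Mock (SD, n = 4 each), nearly level, while that of the whole library was lower in Pilo, and on the scale of each region the difference was -0.23 (adjusted p = 0.0276, SE 0.07). Under one scaling per library none of these genes kept its call. The difference turned to 0.01 for Hnrnpll and 0.07 for Hnrnpa2b1, and was -0.03 for Hnrnpa1 (adjusted p = 0.667) and -0.02 for Hnrnpa3 (adjusted p = 0.827). With scaling per region, the call of Hnrnpll was lost without Mock replicate 1 or 4 (adjusted p = 0.058 to 0.0741) and that of Hnrnpa2b1 without Pilo replicate 1, 3 or 4 or Mock replicate 1, 2 or 4 (adjusted p = 0.059 to 0.118).

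Introns were lower past the test in 7 of the 8 genes with exons above introns. Rbm38, a regulator of mRNA stability and splicing known as a p53 target, had introns at 3.15, 3.85, 5.14 and 3.25 CPM in the Pilo libraries, against 7.43, 5.37, 5.23 and 5.84 CPM in the Mock libraries. The groups did not overlap, but the raw counts were only 39 to 65 in Pilo and 72 to 104 in Mock. Its introns fell by 0.63 (adjusted p = 0.0267, SE 0.21), a call lost without Pilo replicate 1, 2 or 4 or Mock replicate 1 (adjusted p = 0.0503 to 0.0979), and the difference was 0.91 (adjusted p = 0.00616, SE 0.21). Rbm19, which takes part in ribosomal RNA processing, had introns at 15.04, 15.2, 14.6 and 14.9 CPM in the Pilo libraries, against 21.4, 25.2, 25.6 and 23.99 CPM in the Mock libraries. All Pilo values were below the Mock values, a fall of 0.69 (adjusted p = 0.000358, SE 0.12), while exons had -0.001 (adjusted p = 0.998, SE 0.10) and the difference was 0.66 (adjusted p = 0.00198, SE 0.12).

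Rbm48, a protein of the minor spliceosome, fell in introns by 0.62 (adjusted p = 0.00521, SE 0.16) and had a difference of 0.38 (adjusted p = 0.0177, SE 0.10), lost without Pilo replicate 2 or 3 (adjusted p = 0.0559 to 0.065). In exons it had -0.24 (adjusted p = 0.129, SE 0.11), and passed as lower with the block (adjusted p = 0.0266) and without Pilo replicate 1 (adjusted p = 0.0338). Rbm27, which acts in nuclear RNA decay, fell in introns by 0.43 (adjusted p = 0.0241, SE 0.14), lost without Pilo replicate 3 or Mock replicate 1 or 4 (adjusted p = 0.0606 to 0.0852), with a difference of 0.41 (adjusted p = 0.013, SE 0.11), lost without Pilo replicate 2 (adjusted p = 0.0583). Hnrnpf had a difference of 0.51 (adjusted p = 0.00358, SE 0.10), with introns at 25.4 ± 3.84 CPM in Pilo and 31.7 ± 3.48 CPM in Mock. Neither of its regions passed alone, at -0.32 (adjusted p = 0.0633, SE 0.13) in introns and 0.20 (adjusted p = 0.0834, SE 0.09) in exons, whereas with the block introns passed as lower (adjusted p = 0.0199), as they did without Pilo replicate 1 or Mock replicate 3 (adjusted p = 0.0131 to 0.0497). Hnrnpd and Rbm34 fell more in introns than in exons, by differences of 0.26 and 0.28, and that of Rbm34 was lost without Pilo replicate 2 or 3 or Mock replicate 1 or 2 (adjusted p = 0.0516 to 0.0765). Exons of Rbm19, Rbm38, Rbm48, Hnrnpf, Hnrnpd, Rbm25, Hnrnph3, Hnrnpk, Hnrnpu and Rbm4b overlap genes of the other strand and those of Rbm27 and Hnrnpa3 a gene of their own strand, and since the strand setting of the counting is not given in the sources used here, their counts are uncertain.

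Other RNA-binding proteins were listed to set the families in context. These lists were chosen with earlier results of these data known, and their counts were not tested against other genes. Over all genes tested, 15.6% were higher and 16.2% lower in exons, and 19.6% higher and 21.9% lower in introns. Of 25 other neuronal splicing regulators, 12 were higher and 1 lower in exons, with a median of 0.22, and 8 were higher and 2 lower in 24 with tested introns. Ptbp3, a polypyrimidine tract-binding protein, stood at 54.9 ± 4.43 CPM in Pilo and 23.9 ± 1.84 CPM in Mock with 1.20 (adjusted p = 1.58e-06, SE 0.09), and Celf6 at 35.7 ± 5.0 CPM in Pilo and 21.7 ± 1.75 CPM in Mock with 0.72 (adjusted p = 0.000232, SE 0.10). Celf2 was the gene that fell, at -0.32 (adjusted p = 0.0484, SE 0.11). Of 24 hnRNP-like and paraspeckle proteins, 2 were higher and 6 lower, with a median of -0.06. Pcbp1 and Pspc1 were those that rose, at 0.41 (adjusted p = 0.000695, SE 0.07) and 0.33 (adjusted p = 0.00385, SE 0.07). Fubp1 had -0.61 (adjusted p = 0.000155, SE 0.09) and the RNA helicase gene Ddx5 -0.43 (adjusted p = 0.00302, SE 0.09). In introns 5 of 22 genes of this list were higher and 4 lower.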

How the data were processed

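Polyadenylated nuclear RNA of 4 Pilo and 4 Mock samples was analysed from the deposited tables, which hold raw counts. Per the submitters' processing notes, edgeR, R 4.1.1, HTSeq 0.11.2, STAR 2.7.1a and Trimmomatic 0.39 were used with mm10, in unstated roles. How strand was set, which annotation was used and how exonic reads were separated from intronic ones is not given in the sources used here. Genes were matched by symbol, with coordinates and exon overlaps from GENCODE M21 on GRCm38.

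Tests were made in R 4.3.3 with edgeR 4.0.16: TMM scaling, filterByExpr with a minimum count of 10, the robust quasi-likelihood F-test, and Benjamini-Hochberg adjustment over all genes at 0.05. Exons were compared with introns as a region by treatment interaction with the sample as a covariate and scaling per region. An exact permutation test was used for the intronic share. The main fits of exons, introns and their difference were tested on simulated counts. These were drawn independently, without pairing by number and without the link between exons and introns of a sample. The alternative fits were not simulated. No 2 replicates agreed within counting noise, with a chi-square of 10.2 to 34.2 per degree of freedom. Same-numbered libraries of the groups deviated together (Pearson r 0.50 to 0.59 in the exonic table, 0.52 to 0.62 and 0.37 to 0.58 in exons and introns of the second), so the numbers pair the samples, and the fit with the replicate number as a block is given where it changed a call. Alternatives were RLE size factors, other count filters, DESeq2 1.42.0, limma-voom (limma 3.58.1), the block, one scaling per library for both regions, and leaving out each library.

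The members and lists were chosen with earlier results of these data known. Genes named with full values were the 3 Rbfox genes, Rbm3, the 8 largest rises and 8 largest falls in exons, and the 6 largest differences between exons and introns in each direction, among members past the test. They also include the 2 genes of smallest p per direction in the lists of other RNA-binding proteins. Further genes were named after their values were seen.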

Additional observations from a re-analysis of the deposited data

Results flagged for a closer look

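Of 104 sets of 4 values examined, 4 held a sample far from the other 3 by Dixon's 95% critical value, and chance alone gives about 1 set in 20. Rbmx stood at 124 CPM in exons of Pilo replicate 3, the highest of its group, against 93.1 to 96.5 CPM in the other Pilo libraries, all of them below the 145 to 173 CPM of Mock. Hnrnpf stood at 22.2 CPM in exons of Pilo replicate 4, the lowest of its group. Rbfox1 stood at 1282 CPM in introns of Mock replicate 4, the highest Mock library. The 59 genes together took 1.23% of exonic counts in Pilo replicate 1, above the 1.15% of the other Pilo libraries and below every Mock library.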

How the results depend on the processing

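With the replicate number as a block, 17 genes were higher and 20 lower in exons, 12 higher and 17 lower in introns, and 12 above and 19 below between regions, and each of these holds all the calls made without the block. More of all genes passed with the block too, 23.8% higher and 23.2% lower in exons. In introns 27.7% of all genes were higher and 29.2% lower with the block, and between regions 20.5% were above and 18.7% below. DESeq2 called 14 of the 59 genes higher and 15 lower in exons, against 17.2% and 16.3% of all genes. Leaving out 1 library at a time gave 8 to 14 higher and 10 to 14 lower genes in exons (13.6 to 23.7% and 16.9 to 23.7%). Of all genes, 12.7 to 15.9% were higher and 12 to 16.2% lower in these fits. In introns 7 to 9 were higher and 8 to 14 lower (13.7 to 17.6% and 15.7 to 27.5%), against 16.2 to 19.7% and 17.4 to 22% of all genes. Between regions 5 to 9 were above and 11 to 15 below (9.8 to 17.6% and 21.6 to 29.4%), against 9.5 to 13.3% and 9.5 to 12.7% of all genes. One scaling per library for both regions gave 24 above and 5 below, and turned the sign of the difference for Hnrnpa2b1 to 0.067, for Hnrnpll to 0.012 and for Rbm17 to 0.205 (adjusted p = 0.0329), by its construction, since the intronic share of all reads was lower in Pilo. The difference in the share of reads in introns over all genes was -2.98 points when paired by number (exact sign-flip p = 0.125), and -3.36 to -2.71 without 1 library. Of the values of single genes under all alternatives, 2086 stayed on their side of the threshold, 79 lost and 86 gained a call, and 3 that passed in either fit turned sign. Of the 2086, 85 that passed in neither fit turned sign. The cause of these shifts was not tested. Few intronic reads limit the values of genes such as Rbm38.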
